A study of Homo sapiens with 42 samples.

Results

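DNA recovered with an anti-TOP2A antibody was compared with DNA recovered with an anti-TOP2B antibody in cells that had received no drug, where TOP2A and TOP2B are the human type 2 topoisomerases. It rests on 14 of the 42 libraries of the study, 7 for each enzyme, which form 7 pairs because each TOP2A library has a TOP2B library of the same series and replicate. All 2523 centromeric and satellite regions of the count table were used, in 12 classes on 24 chromosomes. KG-1, the cell line used, is an established line of human acute myelogenous leukaemia. All 14 libraries came from cells kept for 1 h in vehicle, 4 pairs as controls of an etoposide series and 3 pairs as controls of a mitoxantrone series, and drug-treated libraries are not used here. Chromatin was sonicated without formaldehyde, pulled down with 4 µg of TOP2A or 5 µg of TOP2B antibody, and the eluted DNA was treated with TDP2, which frees DNA ends blocked by topoisomerase 2, and cut with BsmAI. The 7 untreated input libraries of the same replicas give the background. The labels do not say whether replicas were grown independently, so p-values measure only the spread between these samples, which may be technical.

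Type 2 topoisomerases pass a DNA duplex through a transient double-strand break in another and so remove tangles and supercoils. TOP2A is made mainly in dividing cells, peaks late in the cell cycle, and is needed to condense chromosomes and to part sister chromatids, with a known concentration at centromeres in mitosis. TOP2B is present in dividing and resting cells and is best known for its work at transcribed genes and at the anchors of chromatin loops. Human centromeres are built of alpha satellite, which is ordered into higher-order arrays at the core (some of them live, meaning that they carry the kinetochore), with divergent arrays and monomeric copies towards the edges. Around them lie beta and gamma satellite, the human satellites (HSat1A, HSat1B, HSat2, HSat3), other satellites, ribosomal DNA on acrocentric chromosomes, and centromeric transition sequence, the largely non-satellite DNA between the arrays and the chromosome arms. Whether the enzymes are found at different parts of this landscape before any drug is given is the question the comparison bears on.

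No class, chromosome or region passed an adjusted p of 0.05 between TOP2A and TOP2B in the tests over the 7 pairs. The fitted differences of single regions were small, and the 95% interval of the difference lay within 2-fold in either direction for 1018 of 1076 tested regions (94.6%). It lay within 1.5-fold for 750 of them (69.7%). These intervals come from the fit, and in some satellite regions the single pairs spread more widely. What did differ was which satellites were higher in TOP2A from replica to replica, and the widest differences came from 1 pair, replica 2 of the mitoxantrone series.

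The 14 libraries held between 43988 and 1793995 reads in named regions, with a median of 223427, of 1225662 to 32616057 reads in all. Replica 2 of the mitoxantrone series had the shallowest TOP2A library, 43988 region reads against 125442 in its TOP2B library and 333498 in its input. Replica 3 of that series was the deepest, with 1257813 and 1793995. Centromeric transition regions took 89.9% to 97.1% of region reads in both kinds of library, so differences in the satellite classes rest on a small share of the reads. Of the 2523 regions, 250 had no read in any of the 14 libraries, and 1076 had enough reads to be tested. The 1447 regions that were not tested together held 0.983% of the region reads. Reads of low mapping quality were set aside before counting, 21.1% to 54.8% of all reads in the pulldown libraries. The counts therefore describe the part of each region that reads could be placed in. As region lengths are not used here, levels are compared between libraries for the same region or class and not between regions.

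Within a pair, the enzymes gave nearly the same profile over regions. Over the 472 regions with a mean of at least 50 reads, the correlation of log2 CPM (reads scaled to the region reads of the library) between the TOP2A and TOP2B library of a pair ran from 0.905 to 0.997, with a median of 0.982. These are correlations across regions, which are not independent replicates. Correlations with input of the same replica had medians of 0.967 for TOP2A and 0.966 for TOP2B, so a high value is not particular to the 2 enzymes. The median absolute difference was 0.09 log2 units in replica 2 and 0.19 in replica 4 of the etoposide series, and 0.21 and 0.23 in its replicas 1 and 3. It was 0.12, 0.60 and 0.09 in replicas 1, 2 and 3 of the mitoxantrone series. All pairs but 1 therefore lay at or below 0.23, and replica 2 of the mitoxantrone series stood apart. In the 4 pairs of the etoposide series, the variance of the differences was 1.63, 1.11, 1.21 and 1.18 times the variance that read counting alone gives. It was 2.10, 9.47 and 5.79 times in the mitoxantrone series. At their own depths, the etoposide pairs thus left little difference beyond counting error, while the last 2 pairs of the mitoxantrone series had higher ratios. The ratio also rises with depth for the same difference, so it does not rank the pairs by size of difference. Replica 3 of the mitoxantrone series, the deepest, had a ratio of 5.79 with a median absolute difference of only 0.09. In replica 2 of that series both were high, 9.47 and 0.60.

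**Figure D1:**
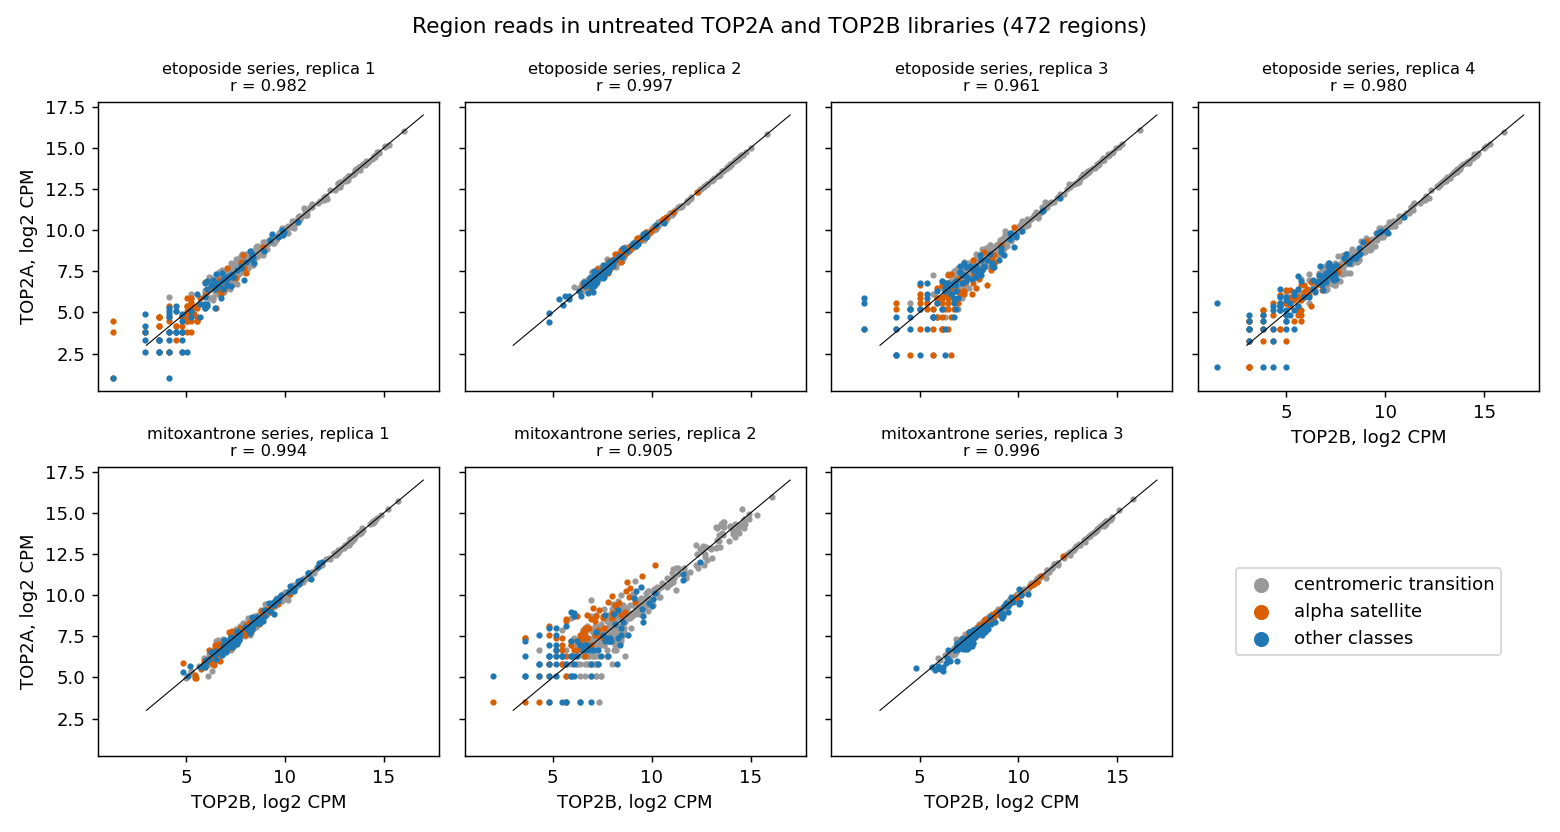
Log2 CPM of region reads of TOP2A (vertical axis) against TOP2B (horizontal axis) for 472 regions in each of the 7 untreated pairs. Each point is a region, coloured by class group, the line marks equal values, and r is Pearson's correlation across regions. Points lie along the line in 6 pairs, and in replica 2 of the mitoxantrone series the alpha satellite regions lie mostly above it.

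By the median, the same enzyme in different replicas was less alike than different enzymes in the same replica, but the ranges overlapped. TOP2A of replica 2 of the etoposide series and of replica 3 of the mitoxantrone series correlated at 0.994, with a median absolute difference of 0.10. The pair of replica 2 of the mitoxantrone series had 0.905 and 0.60. Over 42 pairs of libraries of the same enzyme from different replicas, the correlation ran from 0.807 to 0.994 with a median of 0.860, and the median absolute difference had a median of 0.66 log2 units. Replicas 3 and 4 of the etoposide series and replica 2 of the mitoxantrone series were sequenced in 1 order, and there the same enzyme in different replicas differed by 0.30 to 0.65. These 3 replicas also had the same read length. Each of the other 4 replicas had a sequencing order of its own, and there replica and order cannot be told apart. No 2 libraries of the same kind held identical counts in 63 pairs checked.

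Input DNA of the same replica is the nearest measure of what the libraries hold without a pulldown. The distance from TOP2A to TOP2B was compared with the mean of the distances from each of them to their input, as median absolute differences over the same 472 regions. The enzymes were 0.51 and 0.45 log2 units from input in replica 1 of the etoposide series and 0.21 from each other. In replica 4 the values were 0.44, 0.45 and 0.19. In replica 2 of the etoposide series the 3 distances were nearly equal, 0.09 and 0.11 to input and 0.09 between the enzymes, and in replica 3 they were 0.21, 0.26 and 0.23. In replica 1 of the mitoxantrone series they were 0.22, 0.20 and 0.12, and in replica 3 they were 0.13, 0.08 and 0.09. In replica 2 of the mitoxantrone series TOP2A was 0.80 and TOP2B 0.33 from input, and the enzymes were 0.60 from each other. The distance between the enzymes was below the mean of their distances to input in 6 of 7 replicas. The difference of 0.09 ± 0.13 log2 units (SD, n = 7) did not pass the exact two-sided sign-flip permutation test (p = 0.141). Taken singly, TOP2A was nearer to input than to TOP2B in replica 3 of the etoposide series (0.21 and 0.23). TOP2B was nearer to input than to TOP2A in replicas 2 (0.33 and 0.60) and 3 (0.08 and 0.09) of the mitoxantrone series. With the 3 libraries of a replica thinned to equal region reads, the mean difference was 0.11, in the same direction in 7 of 7 replicas. Its exact permutation p was 0.0156, the smallest that 7 pairs can give, and this alternative was chosen after seeing the data. After thinning, TOP2B was still nearer to input (0.49) than to TOP2A (0.59) in replica 2 of the mitoxantrone series. Without thinning and without that replica, the exact permutation p was 0.0312, and the distance between the enzymes was below the mean in 6 of 6 replicas. The call therefore depended on depth and on replica 2 of the mitoxantrone series.

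By class, no difference held over the 7 pairs. The share of region reads in each class was compared within pairs, as the log2 of the TOP2A share over the TOP2B share, and 0 of 12 classes (0%) passed the exact two-sided sign-flip permutation test after Benjamini-Hochberg adjustment. Before adjustment 0 of 12 classes (0%) had a p below 0.05 as well, and the lowest adjusted p was 0.869. Centromeric transition sequence differed by -0.0029 ± 0.0145 (SD, n = 7). For the satellite classes the pairs spread widely, up to -0.66 to 1.36 for higher-order alpha satellite, so differences of the class mean inside that spread were not detectable.

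Among the 12 classes, higher-order alpha satellite had the largest SD over pairs (0.67), followed by HSat1A (0.66) and HSat3 (0.62). Monomeric alpha satellite held 0.427%, 3.86%, 0.702% and 0.516% of TOP2A region reads in replicas 1 to 4 of the etoposide series and 0.442%, 3.72%, 0.875% and 0.479% of TOP2B region reads. The 3 replicas of the mitoxantrone series had 1.33%, 2.66% and 3.92% of TOP2A and 1.39%, 1.10% and 3.96% of TOP2B region reads. Apart from replica 2 of the mitoxantrone series, the enzymes followed each other while the replicas differed by many times more. The mean log2 ratio of monomeric alpha satellite was 0.14 ± 0.52 (SD, n = 7), higher in TOP2A in 3 of 7 pairs, and -0.05 without that replica. Higher-order arrays, the class that holds the live centromere cores, had a mean of 0.24 ± 0.67 (SD, n = 7) and were higher in TOP2A in 4 of 7 pairs, with a mean of 0.05 without that replica. Their pairs ran from -0.66 in replica 3 of the etoposide series to 0.89 in its replica 4 and 1.36 in replica 2 of the mitoxantrone series. The other 4 pairs lay between -0.11 and 0.12. Among higher-order arrays, the 41 live arrays had a mean of 0.25 ± 0.65 and the 79 others 0.16 ± 0.82 (SD, n = 7), so neither kind stood apart from 0. Divergent arrays had a mean of 0.12 ± 0.44 (SD, n = 7), and -0.03 without replica 2 of the mitoxantrone series.

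The human satellites followed the same replicas. HSat3, the large class of simple repeats found mainly on chromosome 9, the acrocentric chromosomes and chromosome Y, held 0.0984%, 1.16%, 0.299% and 0.178% of TOP2A region reads in the etoposide series. Its TOP2B shares were 0.108%, 1.23%, 0.439% and 0.124%. Shares in the mitoxantrone series were 1.31%, 0.809% and 1.49% in TOP2A and 1.48%, 0.324% and 1.67% in TOP2B. TOP2A was the lower of the 2 in 5 of 7 pairs, by 0.08 to 0.55 log2 units, and the higher in replica 4 of the etoposide series (0.52) and replica 2 of the mitoxantrone series (1.32). HSat2 was higher in TOP2A in those same 2 pairs only, by 0.61 and 0.92, and its mean was 0.11 ± 0.47 (SD, n = 7). The mean of HSat3 was 0.10 ± 0.62 (SD, n = 7). HSat1A had a mean of -0.0025 ± 0.66 and HSat1B, which lies mainly on chromosome Y, one of 0.32 ± 0.52 (SD, n = 7), higher in TOP2A in 5 of 7 pairs (exact permutation p = 0.188). The means of HSat3, HSat2, HSat1A and HSat1B were -0.10, -0.02, -0.19 and 0.21 without replica 2 of the mitoxantrone series.

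Gamma and beta satellite and the other satellites took the opposite sign in the pair with the widest differences. Gamma satellite held 0.493%, 0.267%, 1.24% and 0.583% of TOP2A region reads in the etoposide series and 0.576%, 0.235%, 1.33% and 0.644% of TOP2B region reads. In the mitoxantrone series it held 1.74%, 1.21% and 0.251% of TOP2A and 1.60%, 1.69% and 0.372% of TOP2B region reads. It was lower in TOP2A in 5 of 7 pairs, with a mean of -0.17 ± 0.28 (SD, n = 7) and the lowest p of the 12 classes (exact permutation p = 0.172, adjusted p = 0.869). Its lowest pairs were replicas 3 (-0.57) and 2 (-0.48) of the mitoxantrone series. In input, gamma satellite held a median of 1.38%, against medians of 0.583% in TOP2A and 0.644% in TOP2B. Beta satellite had a mean of -0.02 ± 0.25, the other satellites -0.07 ± 0.15, and ribosomal DNA -0.09 ± 0.32 (SD, n = 7). These 3 means were 0.04, -0.02 and -0.04 without replica 2 of the mitoxantrone series, and that of gamma satellite was -0.12.

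**Figure D2:**
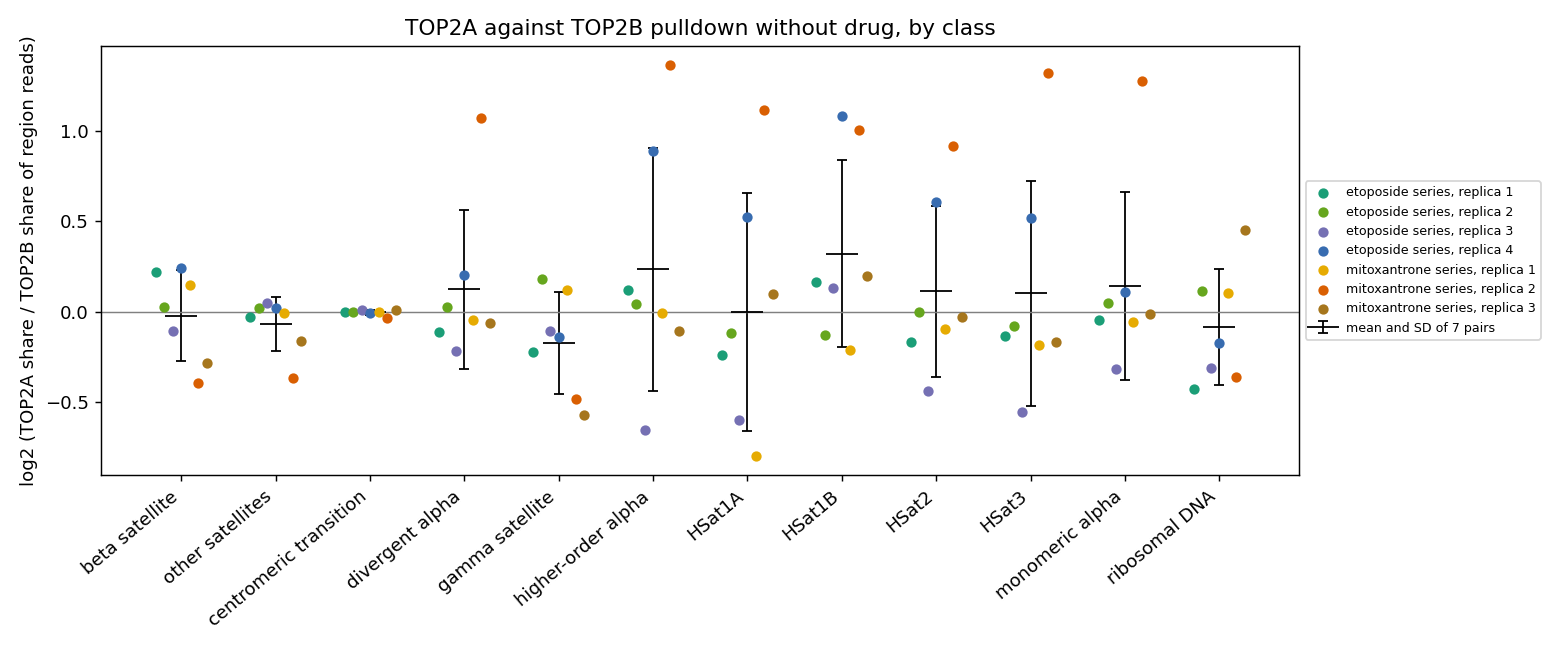
Log2 of the TOP2A share over the TOP2B share of region reads for 12 classes (vertical axis, 0 means equal shares). Points are the 7 pairs, coloured by replica, and the black mark and bars are the mean and SD. Replica 2 of the mitoxantrone series gave 1.28 for monomeric and 1.36 for higher-order alpha satellite, replicas 3 and 4 of the etoposide series lay on opposite sides of 0 for higher-order alpha, HSat1A, HSat2 and HSat3, and every class had pairs on both sides of 0.

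Replica 2 of the mitoxantrone series had classes whose reads did not follow depth. From its TOP2A to its TOP2B library region reads were 2.85 times as many, and from TOP2A to input 7.58 times. Transition reads followed this, at 40435, 117937 and 316673. Gamma satellite reads rose more, at 531, 2117 and 6540, which is 3.99 and 12.3 times as many as in TOP2A. Monomeric alpha satellite did not follow depth, with 1169, 1376 and 1217 reads in TOP2A, TOP2B and input. Higher-order alpha satellite gave 239, 265 and 176 reads and HSat3 gave 356, 407 and 296. In these 3 classes the number of reads changed far less than the region reads of the library. HSat1A had 224, 295 and 38 reads, fewest in the deepest of the 3 libraries. The monomeric share was 2.66% in TOP2A (95% Wilson interval 2.51% to 2.81%), 1.10% in TOP2B (1.04% to 1.16%) and 0.365% in input (0.345% to 0.386%), and these intervals cover counting error only. In replica 2 of the etoposide series, for comparison, monomeric reads numbered 22716, 23610 and 45954 for 589193, 634068 and 1202614 region reads. Classes departed from depth in other replicas too. HSat1B had 301, 161 and 125 reads in TOP2A, TOP2B and input of replica 4 of the etoposide series. Region reads there were 154852, 175891 and 284040. HSat3 reads rose 20.3 times from TOP2A to input in replica 1 of that series, and region reads 6.39 times. The part of the low depth in the differences of replica 2 of the mitoxantrone series was not tested.

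**Figure D3:**
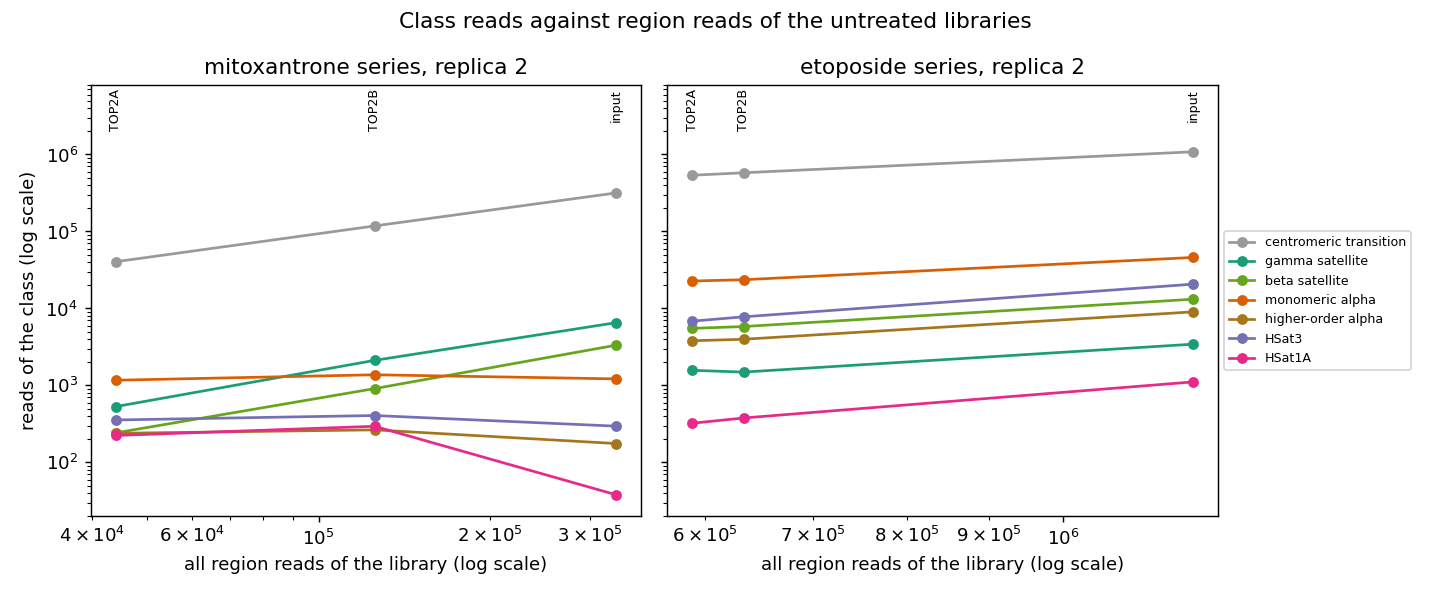
Reads of 7 classes (vertical axis, log scale) against all region reads of the library (horizontal axis, log scale) for the untreated TOP2A, TOP2B and input libraries of replica 2 of the mitoxantrone series (left) and of replica 2 of the etoposide series (right). Points are single libraries and lines join the 3 libraries of a replica. On the left, monomeric alpha satellite stays between 1169 and 1376 reads, transition reads follow the depth, and gamma satellite reads rise more than the depth. On the right all 7 classes have the most reads in input.

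By chromosome, differences were smaller still. No chromosome of 24 (0%) passed the exact permutation test after Benjamini-Hochberg adjustment, and 1 of 24 (4.17%) had an unadjusted p below 0.05. That was chromosome 21, which was higher in TOP2A in 6 of 7 pairs by a mean of 0.09 ± 0.16 log2 units (SD, n = 7; exact permutation p = 0.0312, adjusted p = 0.485). Without replica 2 of the mitoxantrone series its mean was 0.03. Outside that pair the differences ran from -0.13 on chromosome 22 to 0.15 on chromosome Y. Within that pair chromosomes 3 (0.83), 6 (0.66), 4 (0.49), 21 (0.44), 12 (0.39) and 5 (0.37) were higher in TOP2A. Chromosomes 22 (-0.52), 17 (-0.39), 20 (-0.37) and 16 (-0.31) were lower.

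Small as they were, the chromosome differences had a common order in some pairs. Across the 24 chromosomes, the difference in replica 2 of the mitoxantrone series correlated at 0.894 with that in its replica 3, at 0.839 with replica 1 and at 0.666 with replica 4 of the etoposide series. Its correlation with replica 1 of the mitoxantrone series was -0.763. The 9 chromosomes 3, 4, 5, 6, 8, 12, 21, X and Y were higher in TOP2A in all 4 of the pairs that ran together, and 8 of these 9 were lower in TOP2A in replica 1 of the mitoxantrone series. Chromosomes 2, 7, 17, 19, 20 and 22 were lower in all 4, and 4 of these 6 were higher in replica 1 of the mitoxantrone series. Chromosome 3, for example, had 0.08 and 0.05 in replicas 1 and 4 of the etoposide series, 0.83 and 0.07 in replicas 2 and 3 of the mitoxantrone series, and -0.11 in replica 1 of the latter. Replicas 2 and 3 of the etoposide series had correlations of 0.237 and 0.143 with replica 2 of the mitoxantrone series. These groups of pairs were chosen after the differences were seen, the shares of all chromosomes in a library sum to a whole, and the correlations are given as a description. The order turned over in replica 1 of the mitoxantrone series. Without that replica, too, 0 of 24 chromosomes passed the exact permutation test after Benjamini-Hochberg adjustment (lowest adjusted p = 0.167). By class, the 6 correlations among the 4 pairs that ran together were lower, from -0.273 to 0.703 over the 12 classes, and 5 of the 6 were above 0.

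**Figure D4:**
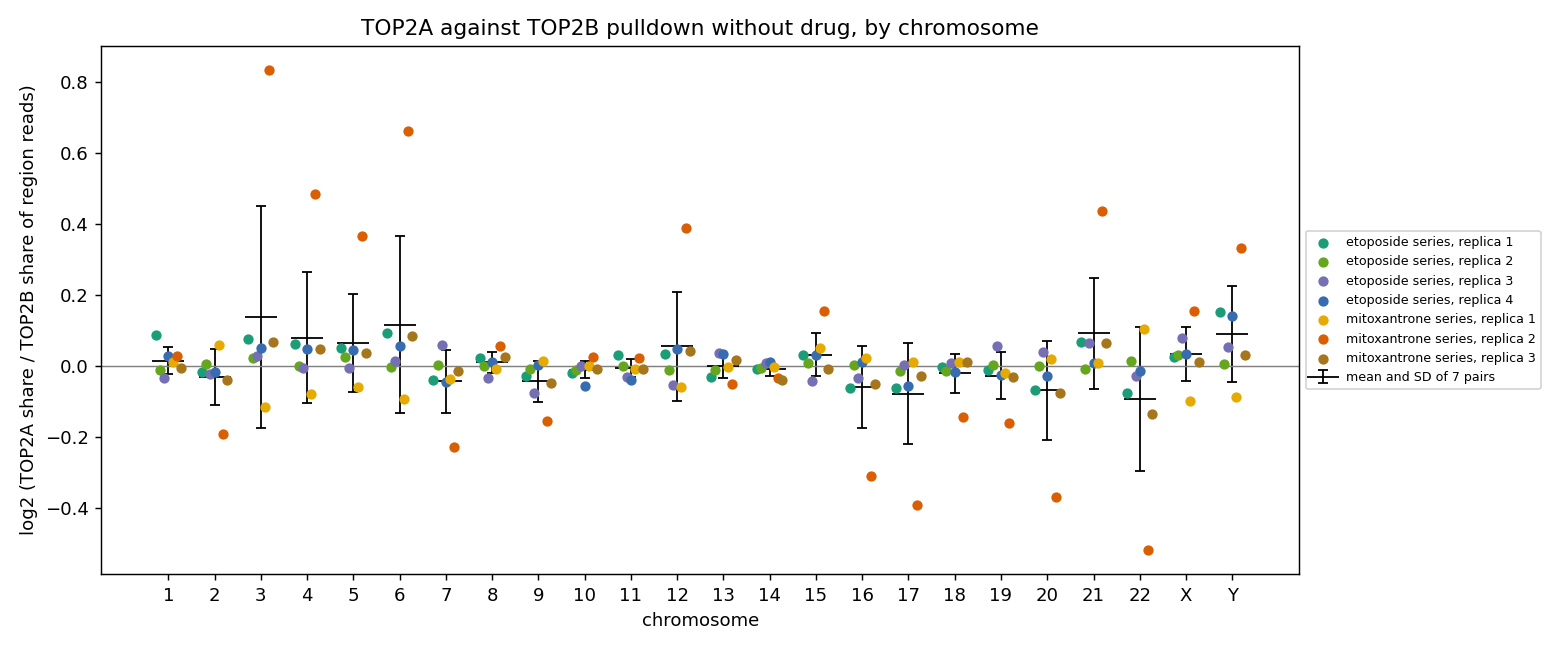
Log2 of the TOP2A share over the TOP2B share of region reads for 24 chromosomes (vertical axis, 0 means equal shares). Points are the 7 pairs, coloured by replica, and black marks and bars are the mean and SD. Outside replica 2 of the mitoxantrone series the points run from -0.13 to 0.15. In that replica they run from -0.52 on chromosome 22 to 0.83 on chromosome 3.

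Splitting classes by chromosome gave 133 combinations with a mean of at least 50 reads. None (0%) passed the exact permutation test after Benjamini-Hochberg adjustment (lowest adjusted p = 0.763), and 8 (6.02%) had an unadjusted p below 0.05. HSat3 on chromosome 3, a single region, was lower in TOP2A in 7 of 7 pairs, with a mean of -0.68 ± 0.57 (SD, n = 7; exact permutation p = 0.0156). Monomeric alpha on chromosome 13 had a mean of 0.63 ± 0.62, beta satellite on chromosome 8 one of 0.44 ± 0.39 and higher-order alpha on chromosome 3 one of 0.43 ± 0.50 (SD, n = 7), each higher in TOP2A in 6 of 7 pairs. Beta satellite on chromosome Y (0.35) and higher-order alpha on chromosome 8 (0.23) were also higher in 6 of 7. Beta satellite on chromosome 9 (-0.58) and the other satellites on chromosome 8 (-0.24) were lower in 6 of 7. Without replica 2 of the mitoxantrone series the mean was -0.18 for beta satellite on chromosome 9, whose value in that pair was -3.01, 0.17 for beta satellite on chromosome Y, 0.25 for higher-order alpha on chromosome 3 and -0.16 for the other satellites on chromosome 8. With a pseudocount of 5 reads in place of 0.5, HSat3 on chromosome 3 had a mean of -0.07.

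By region, 0 of 1076 regions (0%) were called by the edgeR quasi-likelihood test with replica as a block at an adjusted p below 0.05, and 36 (3.35%) had an unadjusted p below 0.05, 9 higher and 27 lower in TOP2A. DESeq2 and limma voom also called 0, with 12 and 26 at an unadjusted p below 0.05. The fitted log2 difference was below 0 for 605 regions and above 0 for 471, with a median of -0.02. This lean depended on the setting. The median was -0.0022 by DESeq2, -0.0091 with scaling to library size alone and 0.0065 without replica 2 of the mitoxantrone series. A region had the same sign in all 7 pairs in 13 cases (1.21%) on the lower side and in 10 cases (0.929%) on the higher side. With the block, the median biological coefficient of variation was 0.0734, below the counting error of 0.158 for a region with 40.2 reads a library, the median. Without it the value was 0.406, over 708 tested regions.

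No class of regions had a called member, and their counts of regions with an unadjusted p below 0.05 are given as a description. HSat3 had 11 of 73 tested regions on the lower side and 0 on the higher, with a median of -0.14, against 27 and 9 of 1076 and a median of -0.02 for all regions. Gamma satellite had 5 of 36 lower and 0 higher, and HSat1B had 2 of 15 higher and 0 lower. Transition regions had 6 of 529 on each side. Monomeric and divergent alpha satellite, HSat1A, HSat2 and ribosomal DNA had 0 of 103, 23, 14, 26 and 5 on either side. Of 26 tested live higher-order arrays, 1 was on the lower side and 0 on the higher, and 24 had an interval within 1.5-fold. Of 12 tested gamma satellite regions of chromosome 8, 11 were lower in TOP2A and 4 had an unadjusted p below 0.05, with a median of -0.19. Without replica 2 of the mitoxantrone series that median was -0.10. The HSat3 median was -0.14 without it as well, although the reads of the whole class in that replica were higher in TOP2A.

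The 5 regions with the highest mean CPM were all transition regions at the arm ends. The largest, ct_8_1 on the short arm side of chromosome 8, had 67583, 58171, 70581 and 64507 CPM of region reads in TOP2A in the etoposide series and 53476, 63040 and 58023 in the mitoxantrone series. The TOP2B values were 67097, 58338, 72989 and 65040, then 53718, 69267 and 57045. The enzymes were level pair by pair, and the fitted difference was -0.06 (SE 0.0470). For ct_8_17, ct_17_31, ct_18_10 and ct_16_69 it was 0.07, -0.12, -0.02 and -0.09, and without replica 2 of the mitoxantrone series 0.02, -0.03, 0.02 and -0.01. Their SEs were 0.0463 to 0.0607, and none had an adjusted p below 0.997 by edgeR with Benjamini-Hochberg adjustment.

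Regions with a mean of at least 50 reads and at least 6 of 7 pairs in 1 direction were ranked by unadjusted p, 32 on the lower and 38 on the higher side. The first on the lower side was hsat3_9_2, an HSat3 region of the B3 family on chromosome 9. It had 1, 101, 10 and 0 reads in TOP2A and 6, 120, 15 and 5 in TOP2B in the etoposide series, and 106, 2 and 311 against 140, 19 and 625 in the mitoxantrone series. TOP2A was lower in 7 of 7 pairs once scaled to region reads, and 3 of the 7 TOP2A libraries had at most 2 reads there. The fitted difference was -0.45 (SE 0.137, 95% interval -0.74 to -0.16), with an edgeR p of 0.00377 and an adjusted p of 0.997. The gamma satellite region gsat_8_2 had 31, 25, 18 and 18 reads in TOP2A and 48, 29, 27 and 21 in TOP2B in the etoposide series. Its mitoxantrone-series reads were 297, 7 and 79 against 299, 39 and 210. It was lower in TOP2A in 7 of 7 pairs, by 0.02 to 0.94 log2 units, with a fit of -0.42 (SE 0.140) and the same adjusted p. Its neighbour in the numbering, gsat_8_3, was fitted at -0.36 and lower in 6 of 7. The HSat3 region of chromosome 3, hsat3_3_1, of the A4 family, was fitted at -0.36 and had 0 reads in 2 of 7 TOP2A libraries and at most 5 in 4 of 7. The beta satellite region bsat_9_5 was fitted at -0.30 and lower in 6 of 7, with 0 reads in TOP2A and 6 in TOP2B of replica 2 of the mitoxantrone series.

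On the higher side, the first 5 regions of the same ranking were all transition regions, each higher in TOP2A in 6 of 7 pairs. The first, ct_9_11, had 18, 103, 13 and 35 reads in TOP2A and 13, 88, 12 and 21 in TOP2B in the etoposide series, and 116, 3 and 183 against 98, 11 and 217 in the mitoxantrone series. Its 7 pairs ran from -0.20 in replica 2 of the mitoxantrone series to 0.91 in replica 4 of the etoposide series, and the edgeR fit gave 0.30 (SE 0.112). Its unadjusted edgeR p was 0.0148 and its adjusted p 0.997. The fits of ct_7_4, ct_13_43, ct_16_29 and ct_22_93 were 0.32, 0.22, 0.21 and 0.19. The pair against the direction was replica 2 of the mitoxantrone series for ct_9_11 and ct_13_43, and each time a replica of the etoposide series for the other 3.

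**Figure D5:**
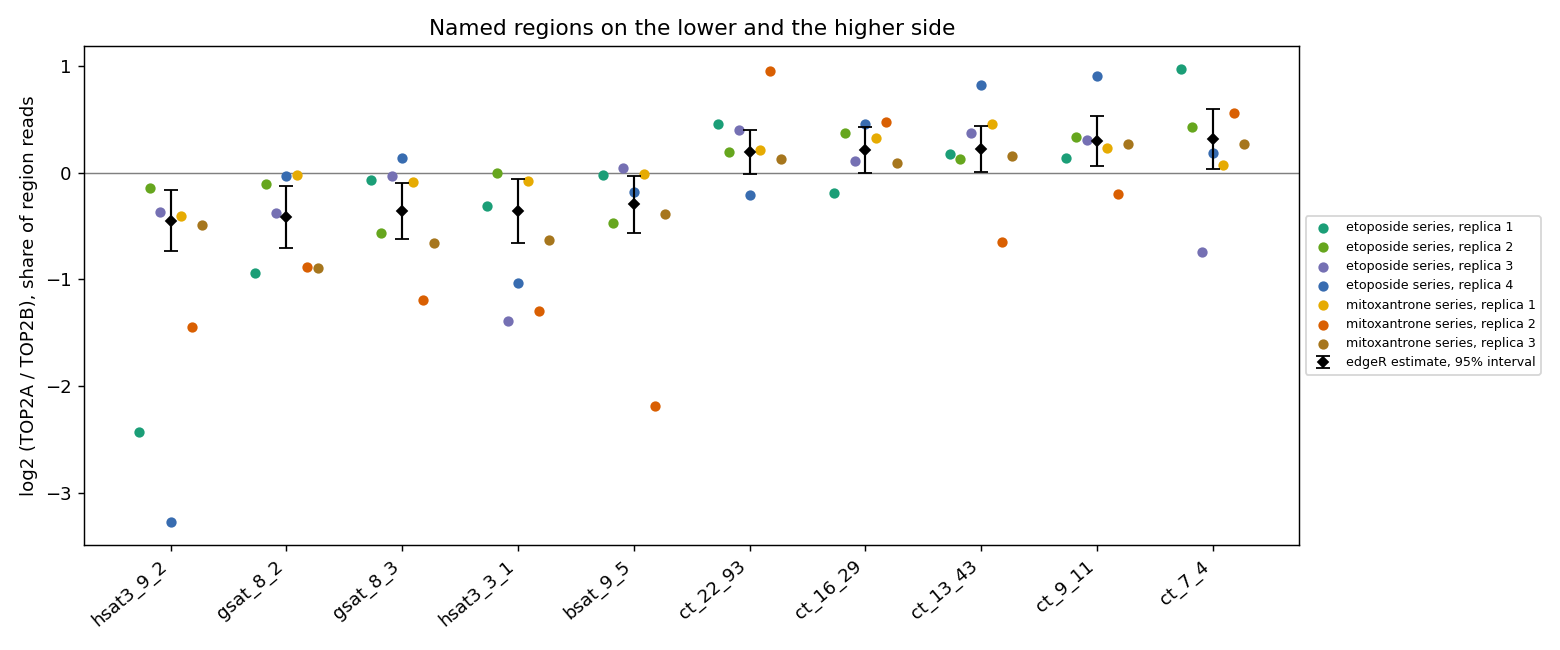
Log2 of TOP2A over TOP2B for the 5 named regions on the lower and the 5 on the higher side (vertical axis). Coloured points are the 7 pairs, relative to region reads. Black diamonds with bars are the edgeR estimates, which use TMM scaling instead, with 95% intervals. Estimates run from -0.45 for hsat3_9_2 to 0.32 for ct_7_4, and the points farthest from 0 are pairs with few reads, such as 0 against 5 reads for hsat3_9_2 in replica 4 of the etoposide series.

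The most read region of each class was not called either. For gamma satellite this was gsat_8_7, with 1432, 874, 3947 and 1757 CPM in TOP2A and 1598, 763, 4399 and 1990 in TOP2B in the etoposide series. In the mitoxantrone series it had 3375, 4160 and 706 against 3244, 5612 and 1038. It was lower in TOP2A in 5 of 7 pairs with a fit of -0.21 (SE 0.0846, 95% interval -0.38 to -0.03). Its unadjusted edgeR p was 0.0242 and its adjusted p 0.997. For monomeric alpha satellite it was mon_8_1, with 125, 3049, 111 and 99 reads in TOP2A and 95, 3159, 94 and 95 in TOP2B in the etoposide series. The mitoxantrone series gave it 473, 160 and 6598 against 524, 146 and 8901. Its 160 reads in the shallowest library made a difference of 1.64 in that pair, the other pairs lay between -0.16 and 0.43, and the fit was 0.23 with and 0.08 without that pair. The live higher-order array hor_18_5 of chromosome 18 was fitted at -0.09, hsat2_1_6 at 0.03, hsat3_9_3 at -0.14, hsat1A_13_1 at -0.05, hsat1B_Y_34 at -0.01 and dhor_6_1 at 0.05. The ribosomal array rDNA_21_1 was fitted at 0.07, bsat_1_1 at -0.10 and censat_Y_23 at -0.05. Leaving out replica 2 of the mitoxantrone series put hsat3_9_3 at -0.23, hsat1A_13_1 at -0.22, rDNA_21_1 at 0.16, gsat_8_7 at -0.13, dhor_6_1 at 0.02, hsat1B_Y_34 at 0.03, bsat_1_1 at -0.07 and censat_Y_23 at -0.03. For hsat3_9_3 the unadjusted p of edgeR's quasi-likelihood test was then 0.00348, and that fit called 0 regions. Its pairs did not share a direction. They ran from -0.83 in replica 3 of the etoposide series to 0.99 in replica 2 of the mitoxantrone series, higher in TOP2A in 4 of 7.

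Each series on its own gave the same picture. In the etoposide series 0 of 853 regions (0%) were called by edgeR and 34 (3.99%) had an unadjusted p below 0.05. In the mitoxantrone series it was 0 of 1281 (0%) and 15 (1.17%). With DESeq2 the counts were 0 in both series, with 5 and 2 at an unadjusted p below 0.05. The test of whether the difference between the enzymes itself differed between the series also called 0 of 1076 (0%), with 13 (1.21%) at an unadjusted p below 0.05, and 3 by DESeq2, which called 0 too. Over 472 regions, the differences of the series correlated at 0.146 and had the same sign in 272 (57.6%). Limma voom called 4 of 853 regions (0.469%) in the etoposide series. The first 3 were transition regions, ct_11_1, ct_17_31 and ct_7_50, lower in TOP2A by 0.08 to 0.10 log2 units, with edgeR adjusted p-values of 0.939. The other was hsat1B_Y_29, an HSat1B region of the DYZ2 family on chromosome Y. Its log2 differences were 0.84, 0.11, 1.57 and 1.32 in the etoposide series and 0.33, 0.16 and 0.09 in the mitoxantrone series, so it was higher in TOP2A in 7 of 7 pairs. Voom gave 0.99 (SE 0.265, adjusted p = 0.0499) and edgeR 1.00 (adjusted p = 0.226) in the etoposide series, at a mean of 16.8 reads, and edgeR gave 0.60 (unadjusted p = 0.0151) over the 7 pairs.

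The share of all reads that fell in named regions was also alike. It ran from 3.41% to 5.49% in TOP2A, from 3.51% to 5.50% in TOP2B and from 2.57% to 5.38% in input. It was lower in TOP2A in 6 of 7 pairs, by a mean of 0.05 log2 units (exact permutation p = 0.0781, adjusted p = 0.195). Relative to reads that passed the mapping filter, region reads differed by -0.0057 ± 0.0102 (SD, n = 7). Reads set aside for low mapping quality were higher in TOP2A by 0.14 and 0.19 log2 units in replicas 3 and 4 of the etoposide series and differed by 0.03 or less in the other 5 pairs. Ambiguous reads, at most 0.0426% of all reads, were lower in TOP2A in 6 of 7 pairs, by a mean of 0.19 log2 units (exact permutation p = 0.0312, adjusted p = 0.156). None of 5 such measures passed the test after adjustment.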

How the data were processed

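Sonicated, untreated KG-1 DNA from TOP2A and TOP2B pulldowns was compared in 7 pairs, with input beside them. The authors deposited raw read counts per named region. The submitters' processing notes name Trimmomatic 0.36, BWA 0.7.17, HTSeq (version string 2.7.13) and the T2T-CHM13 genome. The sources used here give neither the lowest mapping quality accepted nor whether pairs counted as 1. Reads were 38 bp in replica 1 of the etoposide series, 100 bp in replica 1 of the mitoxantrone series and 50 bp elsewhere.

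Regions were fitted with edgeR 4.0.16 in R 4.3.3 (TMM, filterByExpr minimum count 10, quasi-likelihood test) with replica as a block, and p-values were adjusted by Benjamini-Hochberg over all regions tested. DESeq2 1.42.0, limma voom 3.58.1, other scalings and filters and single replicas left out were alternatives. Shares had a pseudocount of 0.5 reads and an exact two-sided sign-flip permutation test, which cannot go below p = 0.0156 with 7 pairs, 0.125 with 4 or 0.25 with 3. Scripts were tested on simulated data. The pairing comes from the replica labels: after removal of group means, the correlation of a pair over 472 regions ran from 0.188 to 0.958, above 0.1 in all 7, and 5 of 7 pairs were each other's best match. Regions named were the 5 with the highest mean CPM, the most read of each class, and, as none was called, the 5 at each end with the smallest unadjusted p among regions with a mean of at least 50 reads and at least 6 of 7 pairs in that direction. The members and lists were chosen with earlier results of these data known. Groups of pairs in the chromosome comparison, live arrays apart from other arrays, and the regions called by voom were named after their values were seen.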

Additional observations from a re-analysis of the deposited data

Results flagged for a closer look

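In 26 of 70 sets of 7 pairs the value of 1 pair lay far from the other 6, and in all 26 that pair was replica 2 of the mitoxantrone series, whose TOP2A library was the shallowest. Chance flags about 1 in 20 sets, and these sets are not independent, since they share reads. By class the log2 ratios of TOP2A to TOP2B concerned were 1.28 for monomeric alpha satellite (other pairs -0.32 to 0.11), 1.07 for divergent alpha satellite and -0.0325 for centromeric transition sequence. By chromosome they were higher on chromosomes 3 (0.83), 4 (0.49), 5 (0.37), 6 (0.66), 12 (0.39) and 21 (0.44). They were lower on chromosomes 2 (-0.19), 7 (-0.23), 16 (-0.31), 17 (-0.39), 18 (-0.14), 19 (-0.16), 20 (-0.37) and 22 (-0.52). By region they were 1.64 for mon_8_1, 1.24 for dhor_6_1, 0.64 for ct_8_17, -0.26 for ct_16_69, -0.43 for ct_17_31 and -2.19 for bsat_9_5, which had 0 reads in that TOP2A library. Region reads over region and no-feature reads differed by -0.0275. The median absolute difference of the pair was 0.60 log2 units and its Pearson correlation 0.905, where the other pairs ran from 0.961 to 0.997.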

How the results depend on the processing

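For 10 comparisons, 107 alternatives were run and 103 left the call or count as it was. The 4 that did not were the limma voom count in the etoposide series (4 regions in place of 0) and 3 alternatives of the distance between the enzymes against their mean distance to input. That difference, -0.0879 with an exact permutation p of 0.141, passed without replica 2 of the mitoxantrone series (-0.109, p = 0.0312), with 1 minus Spearman's rho as the measure (-0.0206, p = 0.0312) and with libraries thinned to equal depth (-0.108, p = 0.0156), the last chosen after seeing the data. Leaving out single replicas gave -0.0564 to -0.109. Without the replicate block, edgeR called 0 of 708 regions over the 7 pairs, 0 of 576 in the etoposide series and 0 of 1088 in the mitoxantrone series, and the block changed no call. Leaving out replica 2 of the mitoxantrone series gave 65 of 1245 regions with an unadjusted edgeR p below 0.05 in place of 36 of 1076, and 0 called. Of 1095 values of 75 classes, chromosomes, measures and regions under alternatives, 78 had the other sign, none of them a called value, and 18 moved by over 1 SD. Depth limits the smaller classes: 7 of 15 tested HSat1B regions had an interval within 2-fold, against 524 of 529 transition regions.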

Other observations

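Finer families within the satellite classes, named as the regions are and given without a test, also had pairs on both sides of 0. Among the other satellites, HSat4 had a mean log2 ratio of TOP2A to TOP2B of 0.27 ± 0.41 (SD, n = 7) and was higher in TOP2A in 6 of 7 pairs. The ACRO family (-0.23 ± 0.42) and SATR (-0.16 ± 0.24) were lower in 6 of 7, and HSat5 (-0.29 ± 0.46) and SST1 (-0.18 ± 0.27) in 5 of 7. Without replica 2 of the mitoxantrone series these means were 0.17, -0.09, -0.13, -0.17 and -0.09. Beta satellite in composites with LSAU had -0.11 ± 0.34 and other beta satellite 0.08 ± 0.20. In gamma satellite, regions with GSATX in the name had -0.37 ± 0.40 and were lower in 6 of 7 pairs, and GSAT regions had -0.15 ± 0.27 and were lower in 5 of 7. The transition regions at arm ends, 43 regions with a median of 61.8% of TOP2A region reads, differed by 0.01 ± 0.02, and the 813 inner ones by -0.03 ± 0.07.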
